A study of Bos taurus with 30 samples.

Results

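The centromeric ends of the bovine autosomes were taken as the first 3 Mb of the assembled sequence of chromosomes 1 to 29. Every ATAC-seq peak that ended within that stretch was a member, which gave 64050 peaks in 30 peak lists. They were 3.06% of the 2090048 autosomal peaks, among 2172195 peaks on all sequences. The ends held 87 Mb, or 3.50% of an autosomal length that was measured from the first base to the last peak end of each chromosome over all lists. Only 4 peaks crossed the inner border, and these were counted with the rest of the chromosomes.

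Cattle autosomes are acrocentric, so the centromere lies at one tip of the chromosome, and the assembly numbers bases from that tip. The bovine centromere and its flanks are built of satellite repeats packed as constitutive heterochromatin, most of which an assembly cannot place. Sequence at the start of an assembled chromosome is therefore the edge of this region rather than the centromere itself, and it is often rich in repeats and in copies of sequence found elsewhere. ATAC-seq cuts DNA where a transposase can reach it and reports open chromatin, and reads that match many places equally well are dropped by a mapping quality filter.

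The study followed open chromatin through bovine preimplantation development and asked when it is established and whether it needs embryonic transcription. Lists were given for 10 conditions with 3 libraries each, and each oocyte or embryo library was made from a pool of at least 500 cells. The 7 control conditions were germinal vesicle (GV) oocytes, 2-cell embryos at 30 to 32 h after insemination, 4-cell embryos at 2 days, 8-cell embryos at 3 days, morulae at 5 days, the inner cell mass (ICM) of blastocysts, isolated by immunosurgery, and embryonic stem cells (ESC) grown on mouse feeder cells. The other 3 conditions were 2-, 4- and 8-cell embryos in which transcription was blocked (TBE) by α-amanitin at 50 µg/ml, a toxin that stops RNA polymerase II. Per the study's methods, TBE and control embryos were split from shared collections and grown side by side, but the labels do not say which libraries share one. All embryos were made in vitro from slaughterhouse oocytes and bull semen. Bovine embryos activate their genome mainly around the 8-cell stage.

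The lists differed greatly in length, and the number of reads behind each one is unknown here. The 2-cell lists held 742, 993 and 5798 autosomal peaks, and the 2-cell TBE lists 708, 7716 and 10448. The 8-cell lists held between 120387 and 151055, and the morula lists between 136956 and 199516. One 8-cell TBE list was the longest of all with 239050 autosomal peaks, against 87944 and 48405 for its replicates. Short lists belonged to the conditions with the highest density in the ends, so list length moved with several results below, and values at equal list length are given beside them.

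Peaks in the ends were counted per Mb and divided by the count per Mb in the rest of the same chromosomes of the same list. The ends of 2-cell embryos were denser than the rest of their chromosomes in every library, with ratios of 2.69, 2.00 and 1.43 and a mean of 2.04 ± 0.635 (SD, n = 3). In the first of these libraries 66 of 742 autosomal peaks lay in the ends, a share of 8.89% with an exact 95% interval of 6.95% to 11.2% that covers counting error only. The next 3 Mb were raised in 2-cell embryos too, at 1.26 ± 0.153 of the rest. Against them the ends held 1.62 ± 0.508 times as many peaks per Mb, with a lowest library of 1.26. The last 3 Mb of the chromosomes held 0.552, 0.678 and 3.38 peaks per Mb in the 2-cell libraries, against 0.282, 0.386 and 2.30 in the rest. GV oocytes gave ratios of 0.958, 0.889 and 0.878, slightly below the rest, although the next 3 Mb of the same chromosomes stood lower still, at 0.772 ± 0.031 of the rest. Against those next 3 Mb the ends of GV oocytes held 1.18 ± 0.073 times as many peaks per Mb, with a lowest library of 1.10. In 4-cell embryos the ratios were 0.990, 1.00 and 1.07, close to the rest of the chromosomes.

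From the 8-cell stage on, every control library had fewer peaks per Mb in the ends than elsewhere. The ratios were 0.853, 0.860 and 0.808 in 8-cell embryos. They were 0.782, 0.774 and 0.840 in morulae, 0.891, 0.809 and 0.861 in the ICM and 0.846, 0.860 and 0.879 in ESC. These 4 conditions overlapped one another, apart from morulae and ESC, and their libraries all lay below the 4-cell libraries. The low density was not particular to the ends. The next 3 Mb stood at 0.863 ± 0.015 of the rest in 8-cell embryos, 0.846 ± 0.0068 in morulae, 0.827 ± 0.0060 in the ICM and 0.892 ± 0.042 in ESC. Relative to these neighbouring stretches the ends were at 0.974 ± 0.030, 0.944 ± 0.050, 1.03 ± 0.053 and 0.966 ± 0.027, an alternative chosen after seeing the data. In absolute terms the ends still gained peaks, from 10.2 ± 5.20 per Mb in 4-cell embryos to 44.7 ± 4.15 at the 8-cell stage, and morulae had 54.0 ± 9.74. The rest of the chromosomes went from 10.1 ± 5.44 to 53.3 ± 6.79 and 67.7 ± 12.7 per Mb.

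**Figure D1:**
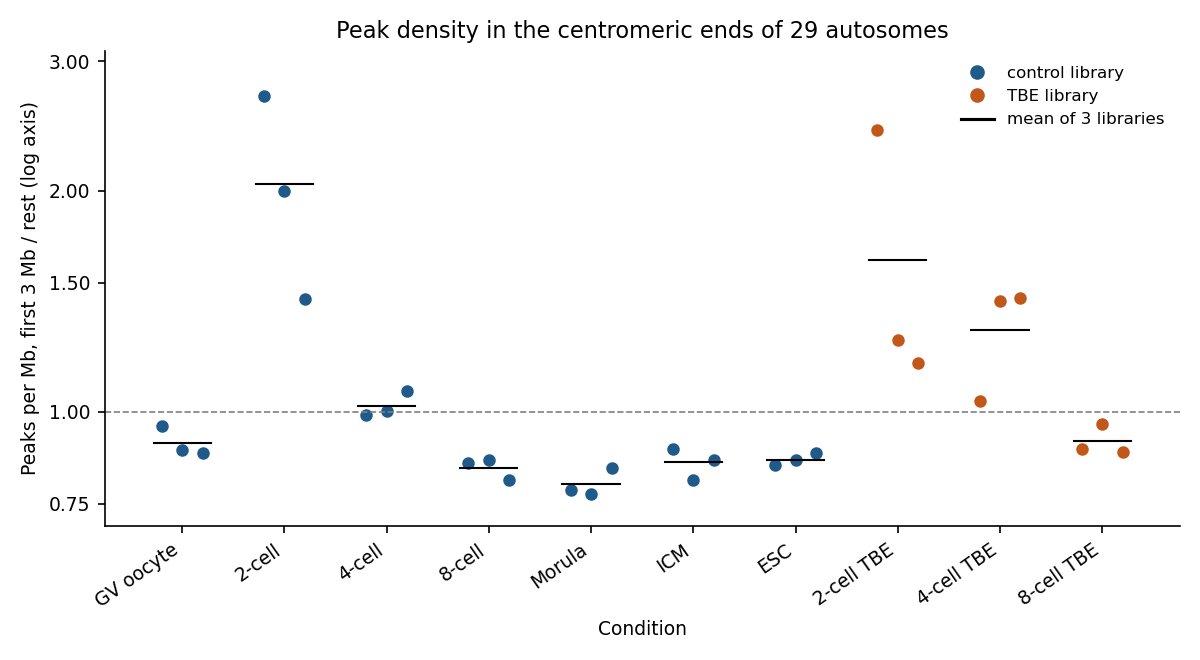
Peaks per Mb in the first 3 Mb of chromosomes 1 to 29 divided by peaks per Mb in the rest of the same chromosomes, on a log axis, for each of 3 libraries in 10 conditions; the black line is the mean and the dashed line marks equal density. All 2-cell libraries lie above 1 (1.43 to 2.69), and all 8-cell, morula, ICM and ESC libraries lie below it (0.774 to 0.891).

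The stages differed beyond the spread of their replicates. Of the sum of squares of the log2 ratio over the 21 control libraries, 89.0% lay between stages (permutation test, 100000 relabellings, p = 2e-05, Benjamini-Hochberg adjusted over 7 tests p = 4.67e-05). Without the 2-cell libraries the share was 84.7%, with a permutation p of 0.00023. Over all 21 control libraries the mean log2 ratio was -0.02 ± 0.46 (SD), with 5 of 21 libraries above 0, and a sign-flip permutation test gave p = 0.834. This average rested on the 2-cell embryos: in the other 18 control libraries the ends held 0.877-fold as many peaks per Mb as the rest (sign-flip permutation p = 5e-05, an alternative chosen after seeing the data). Sign-flip tests here and below flipped each library on its own, although the replicates of a stage are not separate evidence about the ends. Their p-values can therefore be too small.

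Between the 4- and the 8-cell stage the ratio of the ends changed 0.824-fold. The libraries of the 2 stages did not overlap, and the exact permutation test gave p = 0.1, the smallest value that 3 against 3 allows.

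The TBE libraries were compared with the controls of the same stage. In 2-cell TBE the ratios were 2.42, 1.25 and 1.17, which overlapped the control libraries (TBE to control 0.772-fold, exact permutation p = 0.4). In 4-cell TBE they were 1.04, 1.42 and 1.43, of which the lowest lay among the control values (1.25-fold, exact p = 0.2). In 8-cell TBE they were 0.891, 0.962 and 0.883, all above the 3 control libraries of that stage by a small margin (1.08-fold, exact p = 0.1). No comparison of TBE with control could pass a threshold of 0.05 with 3 libraries a side.

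The telomeric ends, the last 3 Mb of the same chromosomes, were the most similar stretches for comparison. Over the control libraries the centromeric ends held 0.713-fold as many peaks per Mb as the telomeric ends, with 2 of 21 libraries above 1 (sign-flip permutation p = 0.00012, adjusted p = 0.00021). The lowest means were those of GV oocytes, 0.395 ± 0.033, and of 8-cell TBE, 0.447 ± 0.114. In 8-cell controls the ratios were 0.821, 0.922 and 0.898. The 2 exceptions were 2-cell libraries, at 1.38 and 1.14. The difference was lost when the mean -log10 q of a peak had to reach 3 (0.885-fold, permutation p = 0.267). With equal numbers of strongest peaks per list its direction turned (1.10-fold, permutation p = 0.171).

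The position of peaks inside the ends was then followed in steps of 250 kb, a step size chosen after the first results were known. The excess of 2-cell embryos was strongest at the outermost step. The first 250 kb of all chromosomes held 23, 21 and 50 peaks in the 2-cell lists, 7.26 ± 4.14 times the density of the rest. The next steps stood at 3.88 ± 2.71, 3.53 ± 2.09 and 1.69 ± 0.664 times, and the step from 1000 to 1250 kb at 0.762 ± 0.298. A second rise lay from 2000 to 2250 kb, at 2.16 ± 0.779 times the rest with every library above 1 (1.38 to 2.94). It rests on few peaks, since all steps beyond the first 250 kb together held 43, 46 and 235 in these lists. The step includes 3 regions of chromosome 2, from 2085781 to 2097061, that had a peak in all 30 lists. The rise was not examined without them. Peaks of the first 250 kb were also dense in 2-cell TBE, at 3.96 ± 3.62 times the rest, and in 4-cell TBE, at 2.59 ± 1.03.

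Later stages showed the opposite gradient. The first 250 kb stood at 0.755 ± 0.020 of the rest in 8-cell embryos, at 0.517 ± 0.014 in the ICM, at 0.387 ± 0.029 in ESC and at 0.384 ± 0.040 in morulae. In morulae the density rose to 0.679 ± 0.042 in the second step and reached 0.915 ± 0.041 between 1000 and 1250 kb. GV oocytes were nearly level, with 0.972 ± 0.069 in the first step. The 8-cell TBE libraries had a mean of 0.936 ± 0.196 there but were unlike, at 0.890, 0.767 and 1.15. The lowest of them was the longest list.

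**Figure D2:**
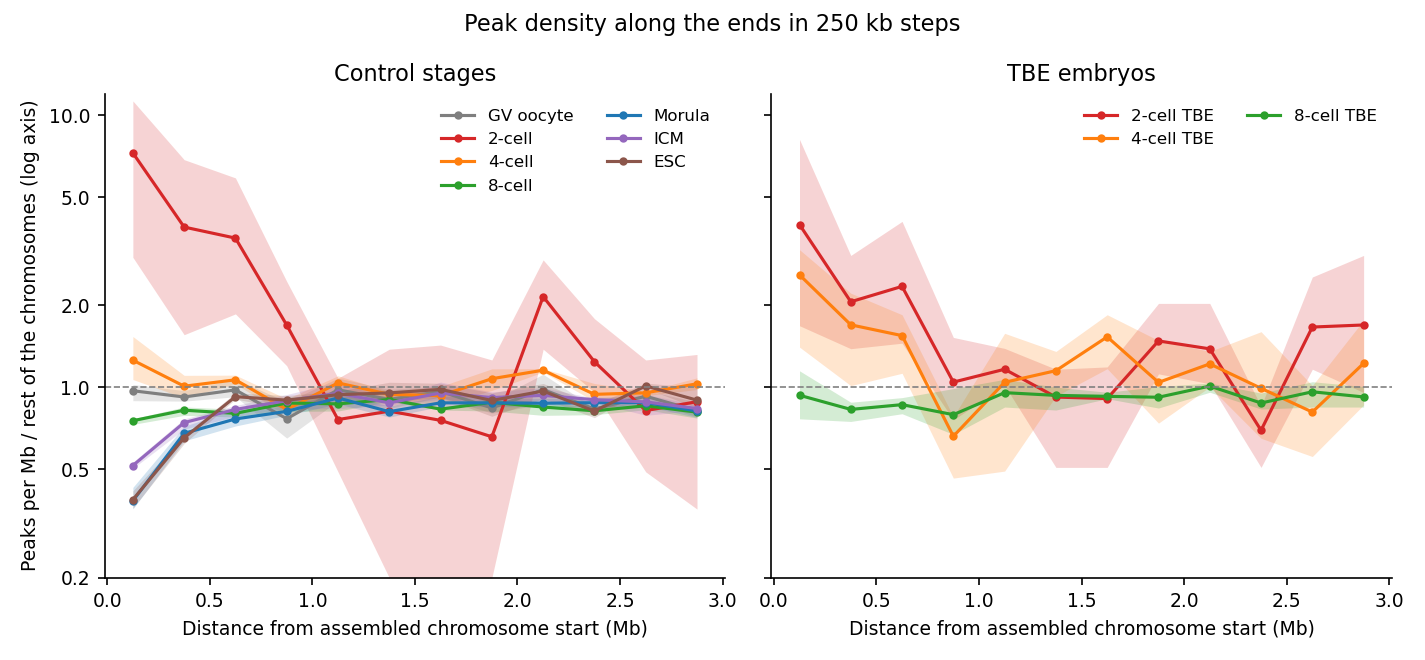
Peaks per Mb in 250 kb steps from the assembled start of the chromosomes, relative to the rest of the chromosomes and on a log axis, for 7 control stages on the left and 3 TBE conditions on the right; lines are means of 3 libraries and bands run from the lowest to the highest library, drawn down to 0.2 where a library had no peak. The first step falls from 7.26 in 2-cell embryos to 0.384 in morulae.

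The density of the first 250 kb was then divided by that of the remaining 2.75 Mb of the ends. In 2-cell embryos the ratios were 5.88, 5.02 and 2.34, and 4-cell embryos gave 1.09, 1.18 and 1.50. The 8-cell libraries stood at 0.846, 0.882 and 0.945, and the morula libraries at 0.436, 0.448 and 0.489. Of the sum of squares, 94.7% lay between the 7 control stages (permutation p = 1e-05, the smallest that 100000 relabellings can give, for a measure chosen after seeing the data). From the 8-cell stage to the morula the ratio changed 0.514-fold with no overlap of libraries (exact permutation p = 0.1, the smallest possible). With equal numbers of strongest peaks per list these stages overlapped, at 0.367, 0.423 and 0.500 in 8-cell embryos and 0, 0.500 and 0.344 in morulae, each from at most 1 outer peak. The 2-cell libraries then gave 6.02, 5.64 and 6.35 and the 4-cell libraries 3.19, 3.82 and 7.12, which overlapped as well.

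The outer peaks of 2-cell embryos came from several chromosomes. At least 1 peak lay in the first 250 kb of 18 of the 29 chromosomes, and 10 chromosomes held one in all 3 libraries. Chromosome 23 gave 24 of the 94 peaks, or 25.5%. Without chromosome 23 the first 250 kb still stood at 5.38 ± 2.85 times the rest in 2-cell embryos, with a lowest library of 2.43, and at 2.95 ± 2.53 in 2-cell TBE.

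To compare lists of equal length, the strongest peaks of each list were taken by their -log10 p, as many as the shortest list held, which was 708. At this equal length the ends held 2.97 ± 0.575 times the density of the rest in 2-cell embryos. The value was 2.29 ± 0.597 at the 4-cell stage, and GV oocytes gave 1.73 ± 0.141. In 8-cell embryos it was 1.09 ± 0.169, in morulae 1.03 ± 0.287, in ESC 1.09 ± 0.084 and in the ICM 0.720 ± 0.142. In TBE embryos it was 2.70 ± 0.243, 2.37 ± 0.121 and 1.63 ± 0.376 at the 2-, 4- and 8-cell stage. Every library of GV oocytes and of 2- and 4-cell embryos lay above every library of the later control stages at this length. These early libraries also had more PCR cycles than those of 8-cell embryos and morulae. Over the 21 control libraries the mean ratio became 1.38-fold (sign-flip permutation p = 0.0083). That mean was raised by the early stages, while the later ones stood near or below the density of the rest, and the test took replicates of a stage as independent.

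The number of strong peaks in the first 250 kb differed between stages in the same direction. Among the 708 strongest peaks, 23, 20 and 30 lay there in 2-cell embryos. The 4-cell lists had 9, 17 and 22, and those of GV oocytes 5, 8 and 8. Each 8-cell library held 1. The morula libraries held 0, 1 and 1, each ICM library held 1, and the ESC libraries held 2, 1 and 1. The mean was 16 in 4-cell and 1 in 8-cell embryos, with no overlap (exact permutation p = 0.1, the smallest possible). These are ranks within lists of unequal length. The 708 peaks were 95.4%, 71.3% and 12.2% of the 2-cell lists, 1.77% to 5.19% of the 4-cell lists and 0.469% to 0.588% of the 8-cell lists, so a count also falls where other peaks are added to a list and is no measure of change in the outer peaks themselves.

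The same counts were made in embryos with blocked transcription. There were 16, 21 and 23 in 2-cell TBE and 16, 19 and 18 in 4-cell TBE, both overlapping their controls (exact permutation p = 0.5 and 0.8). In 8-cell TBE there were 14, 13 and 6, against 1 in each control library, a difference of 10 peaks (exact permutation p = 0.1). The 708 peaks were 0.805%, 0.296% and 1.46% of these 3 lists, and the list with the lowest of these shares held 13. The groups did not overlap, also without chromosome 23, where the difference was 7.

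**Figure D3:**
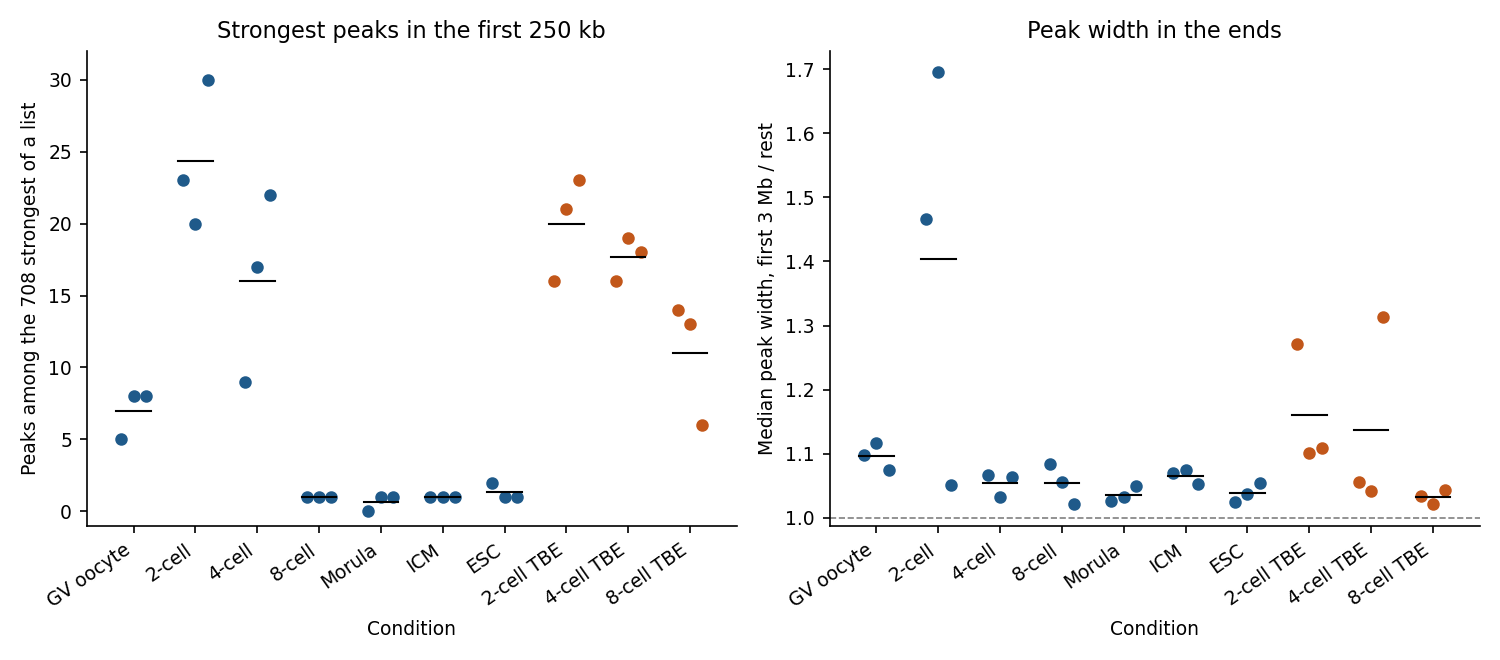
Left, the number of peaks in the first 250 kb of chromosomes 1 to 29 among the 708 strongest peaks of each list; right, the median peak width in the first 3 Mb divided by that in the rest. Points are libraries, in blue for controls and orange for TBE, and the line is the mean of 3; 8-cell controls hold 1 outer peak each and 8-cell TBE libraries hold 6 to 14.

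How strong the remaining peaks of a list were also moved with this count. The weakest of the 708 had a -log10 p between 23.7 and 30.9 in 8-cell embryos and between 16.3 and 20.3 in 8-cell TBE. Their median fold enrichment was 8.54 ± 0.833 in 8-cell embryos, 6.65 ± 1.51 in 8-cell TBE and 4.51 ± 0.358 in 2-cell embryos. Whether the outer peaks weakened or other peaks overtook them cannot be told apart from ranks alone. The fold enrichment of single regions is given next, but they were picked by the same ranks, so it cannot decide this either.

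The 50 regions of the first 250 kb with such a peak lay on 17 chromosomes. A set of 6 regions had one in every 2-cell, 4-cell, 2-cell TBE, 4-cell TBE and 8-cell TBE list, and none of the 50 had one in all 3 8-cell lists. The 6 were chr23:11291-12471, chr7:120329-121488, chr20:112203-112895, chr20:115931-118634, chr9:43199-45448 and chr23:42174-43485, which were picked out after their values were seen. Because strong peaks in the 4-cell and 8-cell TBE lists were required, a comparison with 8-cell controls favours those conditions. On chromosome 9 the region at 43199 had a peak in all 30 lists with a fold enrichment of 4.42 ± 0.297 (SD, n = 30), between 3.90 and 5.06. In 8-cell embryos it stood at 4.32 ± 0.112 and in 4-cell embryos at 4.52 ± 0.210, which overlapped. The regions at chr20:112203 and chr23:11291 overlapped between these stages too. The other 3 were lower at the 8-cell stage with no overlap of libraries. These were chr20:115931 with 6.43 ± 0.557 in 4-cell and 4.84 ± 0.780 in 8-cell embryos, chr7:120329 with 11.8 ± 0.804 and 9.23 ± 1.71, and chr23:42174 with 5.82 ± 0.140 and 5.07 ± 0.116. In 8-cell TBE they stood at 6.30 ± 0.607, 10.3 ± 4.30 and 5.73 ± 0.761, of which the value on chromosome 20 lay above the 8-cell controls without overlap. No genome or gene annotation of the assembly used for these lists, ARS-UCD1.2, was used here, so neither sequences nor genes are given for these positions.

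Recurrence was measured by merging peaks of all lists that shared at least 1 bp, which gave 534484 autosomal regions. Of these, 16370 lay in the ends, 188 per Mb against 216 per Mb in the rest. Most regions were rare in both: 40.8% of the end regions and 39.3% of the others came from 1 list, and 51.5% against 51.0% from 1 condition. A peak in at least 5 conditions was found for 1700 end regions, or 10.4%, against 9.87% of all autosomal regions. At the other extreme the ends stood out. A peak in all 10 conditions was found for 119 end regions, or 0.727%, against 0.401% of all autosomal regions.

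The contrast grew as the requirement became stricter. Regions with a peak in at least 2 of 3 libraries of all 10 conditions numbered 40 in the ends, 0.244% of end regions against 0.05% of all regions. On the autosomes 67 regions had a peak in all 30 lists, a share of 0.0125%, and 21 of them, or 31.3%, lay in the ends. Per Mb the ends held 12.6 times as many of these as the rest. These are counts of regions, which are not replicates, and carry no test. A peak in all 10 conditions or in all lists requires one in the short 2-cell and 2-cell TBE lists, in which the ends were dense. The excess is therefore not separate from that density. Neither reads nor an input control were used here, so how reads were placed in regions that recur in every list, or in the outer regions of 2-cell embryos, was not tested.

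**Figure D4:**
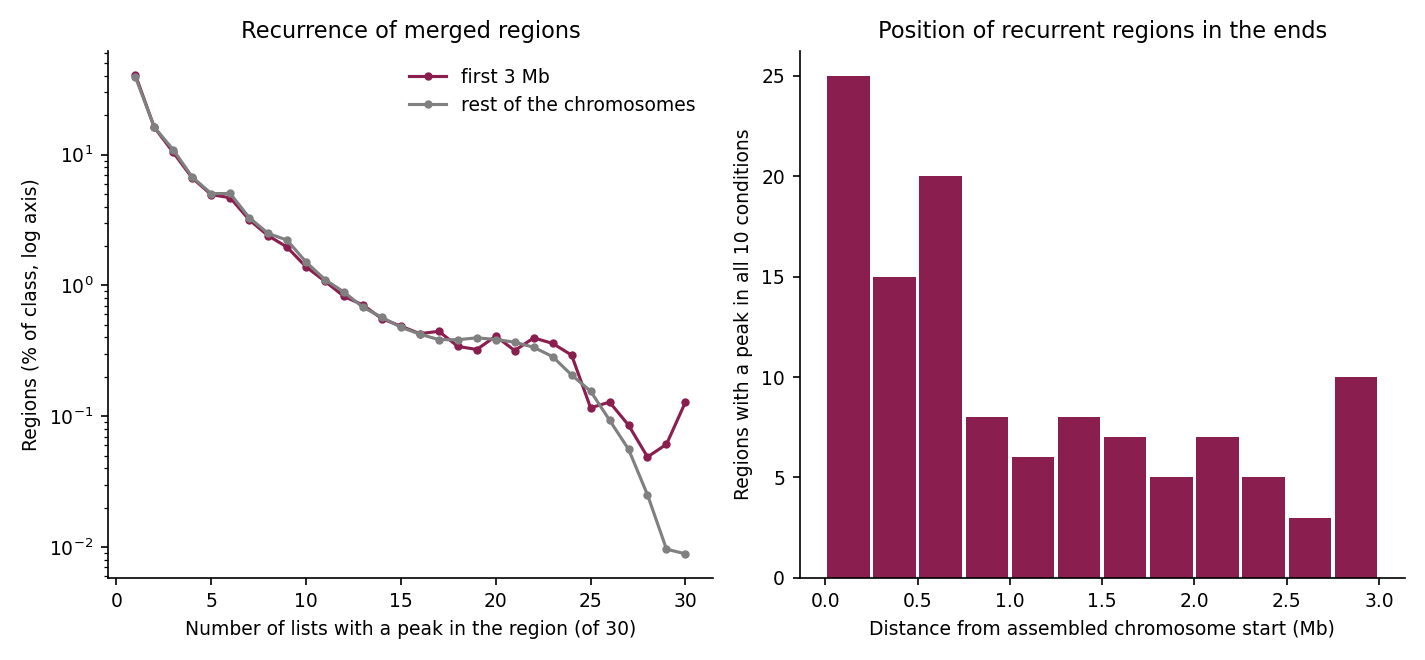
Left, the share of merged regions by the number of lists with a peak, on a log axis, for the first 3 Mb and for the rest of chromosomes 1 to 29; right, the number of end regions with a peak in all 10 conditions in 250 kb steps from the assembled start. The curves run close together up to 25 lists and lie far apart at 30 lists (0.128% against 0.00888%), and the first step holds 25 recurrent regions.

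Recurrence was also measured per library from the same lists, where each peak was scored by how many of the other 9 conditions had an overlapping peak. Peaks in the ends were shared with more conditions in every control library. The mean difference to the rest was 0.382 ± 0.467 conditions over 21 libraries (sign-flip permutation p = 1e-05, the smallest that the resamples allow, adjusted p = 3.5e-05). It was 1.17, 2.18 and 0.296 in 2-cell embryos and between 0.135 and 0.239 in morulae. In the TBE libraries 8 of 9 lay above 0 (mean 0.398, exact sign-flip permutation p = 0.0078). The exception was the longest 8-cell TBE list at -0.0199. Libraries share the other conditions that scored them, so these values are not fully independent.

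Regions found in all 10 conditions lay towards the chromosome tip. Of the 119, 60 began in the first 750 kb, which is 25% of the length of the ends, and 15 of the 21 regions found in all lists began there. Such regions must hold a 2-cell and a 2-cell TBE peak, and those lists were densest in the same outer steps. Their position is therefore partly fixed by the rule and is no separate result. The 119 spread over 26 of 29 chromosomes, with 14 on chromosome 25, 9 on chromosome 23 and 8 each on chromosomes 1 and 21. The 21 regions of all lists lay on 10 chromosomes and clustered: 4 on chromosome 23 within the first 40 kb, 3 on chromosome 28, 3 on chromosome 16 and 3 on chromosome 2. Recurrent regions were about as wide in the ends as elsewhere, with median widths of 1768 and 1840 bp.

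Some of the regions found in every list had nearly the same fold enrichment in all of them. At chr16:818422-821343 it was 2.25 ± 0.093 over the 30 lists, from 2.09 to 2.38, so that oocytes, embryos, stem cells and TBE embryos were alike. Its neighbour at chr16:825812-829740 gave 2.16 ± 0.096. Over the 21 regions the coefficient of variation between lists ran from 4.13% to 38.3% with a median of 12.1%, and over the 46 such regions elsewhere it had a median of 14.9%. The strongest was chr7:555500-556021, 522 bp long, at 11.2 ± 1.59, with a lowest value of 6.81 in 1 8-cell library and a highest of 13.9 in 1 8-cell TBE library.

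Other recurrent regions varied with the stage. At chr7:120329-121488 the fold enrichment in the 3 libraries of 2-cell embryos was 9.32, 10.2 and 10.8. It was 9.77, 7.31 and 10.6 in those of 8-cell embryos, 4.50, 6.85 and 4.91 in morulae and 9.42, 10.5 and 12.7 in the ICM. The morula libraries lay below all libraries of the other 3 stages. At chr17:208208-211411, which had a peak in 28 lists, the values were 4.24, 4.06 and 4.70 in 8-cell embryos and 9.18, 11.1 and 7.80 in morulae, without overlap and in the other direction. The region at chr15:1508261-1510498 was found in 29 lists with 5.40, 5.82 and 5.77 in 8-cell embryos and 8.44, 8.61 and 7.85 in morulae. The region chr27:92598-95474, also in 29 lists, was missing from 1 ESC list only, and chr2:2095227-2097061 was present in all at 6.28 ± 0.652.

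The share of each list that lay in such regions was then measured. In 2-cell embryos 58.3 ± 16.6% of the end peaks fell in regions of all 10 conditions, against 38.7 ± 5.70% of the peaks elsewhere. In morulae the shares were 2.67 ± 0.411% and 1.35 ± 0.245%. With these regions left out, the density ratio of the ends fell from 2.04 to 1.31 ± 0.345 in 2-cell embryos. It was 1.09 ± 0.055 in 2-cell TBE and 1.05 ± 0.097 in 4-cell TBE. For 4-cell embryos it was 0.954 ± 0.016, and for 8-cell embryos 0.827 ± 0.027. Over the 21 control libraries the ends were then poorer in peaks than the rest (0.901-fold, sign-flip permutation p = 0.0161). A region of all 10 conditions must by definition hold a 2-cell and a 2-cell TBE peak. Leaving such regions out thus takes most from the short lists in which the ends were dense. The lower values are therefore partly fixed by this choice and are no separate result.

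Peaks in the ends were wider than peaks elsewhere. The median widths were 416, 380 and 445 bp in the ends of GV oocytes against 379, 340 and 414 bp in the rest. In morulae they were 356, 405 and 402 bp against 347, 392 and 383 bp. The 2-cell libraries gave 394.5, 339 and 330 bp against 269, 200 and 314 bp, and the first and second of them differed most. All 21 control libraries showed the same direction, with a mean of 1.10-fold (sign-flip permutation p = 1e-05, the smallest possible, adjusted p = 3.5e-05), and so did all 9 TBE libraries (exact sign-flip permutation p = 0.0039).

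Fold enrichment over the local background was hardly different. For broad peaks the peak caller gives it as a mean over the whole peak, so it is no measure of peak height. In 2-cell embryos the median was 4.16 ± 0.405 in the ends and 4.00 ± 0.254 in the rest. In 8-cell embryos these were 3.84 ± 0.164 and 3.90 ± 0.127, and in morulae 4.26 ± 0.110 and 4.23 ± 0.109. Over the control libraries the ratio was 1.00-fold with 10 of 21 libraries above 1 (sign-flip permutation p = 0.932). The ratio did vary with the stage, with 70.4% of the sum of squares between stages (permutation p = 0.00175, adjusted p = 0.00245), but the sizes were small. All 3 libraries lay below 1 in 8-cell embryos and in the ICM, where the medians were 3.96 ± 0.301 in the ends and 4.08 ± 0.259 in the rest. Among equal numbers of strongest peaks this difference between stages was lost (permutation p = 0.169).

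The chromosomes differed strongly in how open their ends were. Over the 21 control libraries chromosome 25 was highest with 1.85 ± 0.649 times the density of the rest of the same chromosome, above 1 in 21 of 21 libraries. Chromosomes 14 and 16 followed with 1.60 ± 0.643 and 1.60 ± 0.932. Chromosome 19 was lowest at 0.319 ± 0.241, below 1 in all but 1 library, and chromosomes 26 and 6 stood at 0.530 ± 0.253 and 0.543 ± 0.273. All of these SDs include the differences between stages.

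The order was not the same at every stage. On chromosome 25 the ratios were 2.15, 1.85 and 1.71 in GV oocytes, 2.30, 2.08 and 1.89 in ESC and 1.30, 1.16 and 1.15 in 8-cell embryos, so the 8-cell libraries lay below both. In 2-cell TBE they were 3.09, 3.30 and 3.45, above all but 1 control library. On chromosome 23 the end was poor in peaks in GV oocytes, at 0.246, 0.223 and 0.194, and rich in them in 2-cell embryos, at 7.70, 4.50 and 1.65. The 2-cell values rest on 26 end peaks in 3 lists. Chromosome 19 held 23 end peaks in the GV lists, at ratios of 0.099, 0.093 and 0.053, and 225 in the 8-cell lists, at 0.311, 0.451 and 0.391.

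In 2-cell embryos 10 chromosomes were above 1 in all libraries and 4 below. In 8-cell embryos 5 were above and 20 below, and in morulae 6 and 22. The median chromosome stood at 0.637 in GV oocytes and at 0.824 in 8-cell embryos. The ends of single chromosomes ranged from 0.0816 to 2.35 in GV oocytes, and the lowest ratio in 8-cell embryos was 0.384.

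**Figure D5:**
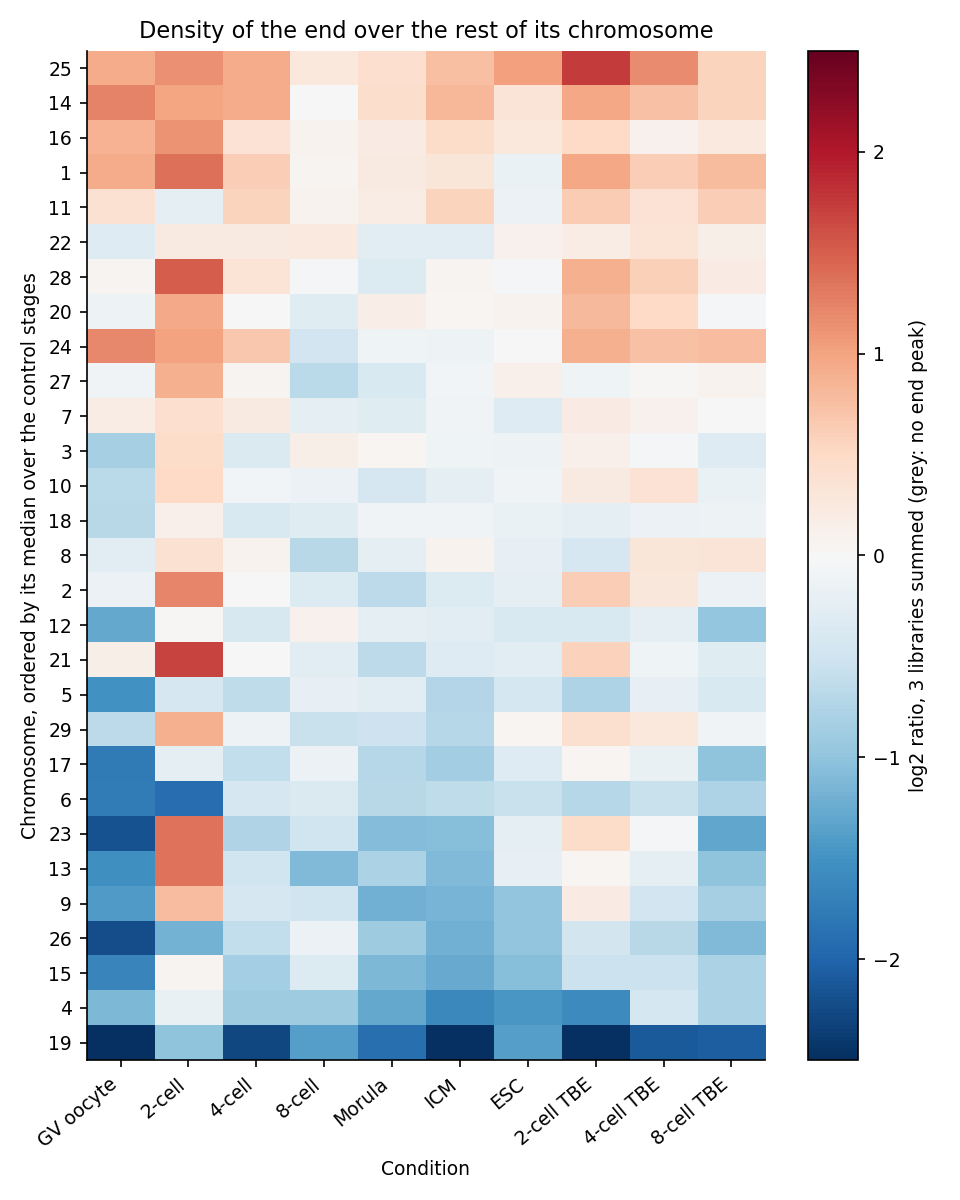
log2 of the density in the first 3 Mb over the density in the rest of the same chromosome, with the peaks of 3 libraries summed, for 29 chromosomes in rows and 10 conditions in columns; red is denser and blue is sparser. Chromosome 25 is above 1 in all conditions and chromosome 19 below 1 in all, and the 2-cell column turns red on chromosomes such as 23 and 13 that are blue in GV oocytes.

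Regions that appeared or disappeared between conditions were counted where all 3 libraries of one condition and none of the other held a peak. From the 4- to the 8-cell stage 1490 of the 6556 end regions in either stage were gained, 22.7% against 25.7% of all autosomal regions. Loss was rare, with 1 end region, or 0.0153%, against 0.0345% of all. From the 8-cell stage to the morula 743 of 8720 end regions were gained (8.52% against 9.19% of all) and 327 lost (3.75% against 3.56%). All these shares were near those of the whole autosomes.

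From morula to ICM 901 of 7821 end regions were lost (11.5% against 12.8%) and 47 gained (0.601% against 0.744%). Between ICM and ESC 471 of 7326 were found in ICM alone (6.43% against 8.03%) and 274 in ESC alone (3.74% against 4.01%). From GV oocytes to 2-cell embryos 495 of 2265 were lost (21.9% against 22.3%) and none gained (0 of 71432 regions in all autosomes). From the 2- to the 4-cell stage 114 of 2000 end regions were gained (5.70% against 6.09%) and none lost (0 of 57511 in all). Both of these steps rest on the short 2-cell lists.

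With transcription blocked, 949 of 11669 end regions of the 8-cell stage were present in all controls and in no TBE library, 8.13% against 9.75% of all autosomal regions. The reverse held for 171 end regions, 1.47% against 1.66%. At the 4-cell stage 9 of 2407 end regions were found in controls alone (0.374% against 0.746%) and none in TBE alone (0 of 70130). At the 2-cell stage 3 of 777 were found in TBE alone (0.386% against 0.345%) and none in controls alone (0 of 19723).

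The most enriched regions gained at the 8-cell stage lay in the inner part of the ends, as did most end regions. Only 991 of the 16370 merged end regions began in the first 250 kb, so this position is no separate result. At chr18:2074222-2075011 the fold enrichment was 8.42, 11.6 and 11.1 in 8-cell embryos, 12.1, 11.9 and 10.3 in morulae and 7.67, 7.27 and 6.19 in the ICM. No ESC list held a peak there, and 1 of 3 8-cell TBE lists did, at 2.63. At chr13:2413501-2414553 it was 9.88, 10.5 and 10.1 in 8-cell embryos and 7.57, 8.00 and 8.14 in morulae. At chr10:1213622-1214384 it was 10.3, 9.16 and 10.0 in 8-cell embryos and 7.59, 7.69 and 7.61 in morulae. In each of these 3 regions the single TBE peak came from the longest list. The only region lost was chr27:2776489-2778377, with 2.97, 5.23 and 3.74 in 4-cell embryos, and it was present again in all 3 8-cell TBE libraries at 3.83, 3.25 and 4.78.

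The strongest end regions found in 8-cell controls and absent from 8-cell TBE were also found in morulae. At chr21:2532764-2533376 the values were 8.59, 10.2 and 10.3 in 8-cell embryos, 8.93, 9.45 and 9.53 in morulae and 7.57, 8.14 and 9.54 in the ICM, with no peak in any other condition. At chr6:866883-867416 they were 9.54, 9.68 and 10.1 in 8-cell embryos and 8.82, 12.5 and 9.81 in morulae. At chr21:1731059-1731681 they were 7.88, 9.84 and 10.0 in 8-cell embryos and 10.1, 10.6 and 8.67 in morulae. The opposite regions were weaker: chr22:1909284-1910315 had 6.32, 4.43 and 6.10 in 8-cell TBE, chr25:2520095-2520411 had 7.05, 3.74 and 5.83, and chr24:2717988-2718404 had 6.94, 4.23 and 5.22.

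The highest single values in the ends belonged to the recurrent region on chromosome 7 and to regions of the late stages. The region chr21:2314283-2315133 reached 14.0 in 1 ESC library, with 7.65 and 10.3 in the others, and outside ESC had a peak in 1 8-cell list at 4.44. The region chr9:1536520-1537665 gave 6.89, 13.9 and 8.97 in ESC, 8.66, 5.78 and 6.43 in the ICM and 4.52, 5.57 and 4.20 in morulae, and no peak in an earlier stage. The widest merged region was chr21:673120-680577 with 7458 bp and a peak in 28 lists.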

How the data were processed

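ATAC-seq peak lists of 30 libraries were analysed, 3 per condition. Reads were trimmed by the authors (Trim Galore, cutadapt 0.4.0) and mapped with BWA 0.7.17 to assembly ARS-UCD1.2. They removed duplicates, mitochondrial reads and alignments with a mapping quality under 15 (SAMtools 1.7) and called broad peaks per library with MACS2 2.1.1 at q 0.05, versions per the submitters' processing notes. The deposited lists give a fold enrichment over local background (a ratio), -log10 p and -log10 q values and a display score, which was not used. Densities used the span up to the last peak end of each chromosome. Libraries were the unit of every test: sign-flip permutation tests over 21 control libraries, relabelling tests over 7 stages (100000 resamples) and exact tests of 3 against 3, all two-sided, in Python 3.11.15 with numpy 2.4.6 and pandas 2.3.3. The sign-flip tests did not group the replicates of a stage, so their p-values can be too small. Scripts were tested on simulated lists, where the known density ratio was recovered within 10% in 9 of 10 conditions. Groups came from the labels. The 3 libraries of a stage came from separate collections, which TBE and control embryos shared per the methods. No batch is labelled, and correlations of same-numbered libraries left the pairing open. The members and the regions named (the most recurrent, the strongest of each class, the widest, and the 3 highest and lowest chromosomes) were chosen with earlier results of these data known. Read depth is not given, so counting intervals cover peaks only. Genes and sequences were not analysed here. Alternatives were stricter peaks, other windows, equal list lengths, covered bp and left-out replicates.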

Additional observations from a re-analysis of the deposited data

Results flagged for a closer look

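Some groups of libraries lay wholly on opposite sides of a reference, and unless a test is named above these differences were not tested. The density ratio of the ends to the rest, as a geometric mean of 3 libraries, was 1.97 in 2-cell embryos, 1.52 in 2-cell TBE and 1.28 in 4-cell TBE, with every library above 1, while every library of GV oocytes, 8-cell embryos, morulae, ICM, ESC and 8-cell TBE lay below 1. The 3 raised conditions also had the shortest lists; at 708 peaks per list their ratios were 2.97, 2.70 and 2.37. At that length the contrast of sides was lost, since every library of GV oocytes (1.57 to 1.83) and of 8-cell TBE (1.22 to 1.96) also lay above 1.

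Taken by replicate number, TBE libraries exceeded controls in the log2 density ratio by 0.33 in 4-cell and by 0.12 in 8-cell embryos, and differed by -0.37 in 2-cell embryos, with the same sign in every pair of one stage. The labels do not say that a number marks a shared collection, and the difference between stages was not tested.

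The ratio of median fold enrichment was 1.01 in GV oocytes, 1.01 in 2-cell TBE and 1.01 in 4-cell TBE with every library above 1, and below 1 in every library of 8-cell embryos (0.984), ICM (0.969) and 8-cell TBE (0.982). The log2 ratio of centromeric to telomeric ends was higher in TBE by 0.42 in 4-cell embryos and differed by -1.01 in 8-cell embryos, again in every pair by number.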

How the results depend on the processing

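Results were recomputed under 243 alternatives of 33 results, of which 167 kept direction and side of the threshold or stayed within 1.5 times a count. The direction of the pooled density ratio is not stable. Its log2 value of -0.02 became 0.25 with a mean -log10 q from 3 up, 0.46 among equal numbers of top peaks, 0.13 in covered bp, 0.0030 without the last 3 Mb in the rest, 0.12 against the next 3 Mb and 0.024 without 1 chromosome at the highest, and -0.059 to 0.0060 without each replicate. It passed the threshold without the 2-cell libraries (-0.19) and without regions of all 10 conditions (-0.15). The stage difference in density kept its call under every alternative run, with 74.5% to 97.0% of the sum of squares between stages. The log2 fold enrichment ratio, -0.00068, turned to 0.012 at a fold enrichment of at least 3 and 0.0024 in the first 1 Mb, and ran from -0.0045 to 0.0029 without each replicate. Its stage difference was lost with top peaks (43.7%) and ran from 58.7% to 92.6% without each replicate, lost without replicate 2. The log2 ratio to the telomeric ends was -0.18 with a mean -log10 q from 3 up and 0.13 with top peaks. The causes were not tested. The first 250 kb gave no log ratio with top peaks, since 1 morula list had no outer peak. Width and recurrence kept their calls under every alternative run. Alternatives without 2-cell libraries, recurrent regions or chromosomes, against the next 3 Mb, and all of those for the first 250 kb were chosen after seeing the data.

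Counts of changed end regions depend on the rule. Brackets give the share of end regions and then that of all autosomal regions. The first rule needed at least 2 of 3 libraries. GV oocyte against 2-cell gave 3 in 2-cell alone (0.132%, 0.0238%) and 885 in GV oocyte alone (39.1%, 40.4%). 2-cell against 4-cell gave 385 in 4-cell alone (19.25%, 20.7%) and 1 in 2-cell alone (0.05%, 0.0156%). 4-cell against 8-cell gave 2475 in 8-cell alone (37.8%, 41.2%) and 51 in 4-cell alone (0.778%, 0.635%). 8-cell against Morula gave 1495 in Morula alone (17.1%, 17.4%) and 764 in 8-cell alone (8.76%, 8.17%). Morula against ICM gave 240 in ICM alone (3.07%, 2.96%) and 1720 in Morula alone (22.0%, 23.7%). ICM against ESC gave 996 in ESC alone (13.6%, 14.0%) and 965 in ICM alone (13.2%, 14.9%). 2-cell against 2-cell TBE gave 68 in 2-cell TBE alone (8.75%, 8.50%) and 6 in 2-cell alone (0.772%, 0.213%). 4-cell against 4-cell TBE gave 8 in 4-cell TBE alone (0.332%, 0.160%) and 134 in 4-cell alone (5.57%, 6.38%). 8-cell against 8-cell TBE gave 1058 in 8-cell TBE alone (9.07%, 9.08%) and 1606 in 8-cell alone (13.8%, 15.9%). The second rule needed a mean -log10 q from 3 up. GV oocyte against 2-cell gave 209 in GV oocyte alone (24.5%, 27.5%). 2-cell against 4-cell gave 27 in 4-cell alone (4.49%, 4.73%). 4-cell against 8-cell gave 933 in 8-cell alone (29.4%, 31.9%) and 0 in 4-cell alone (0%, 0.00544%). 8-cell against Morula gave 186 in 8-cell alone (3.50%, 3.61%). Morula against ICM gave 25 in ICM alone (0.529%, 0.813%). ICM against ESC gave 168 in ESC alone (4.46%, 4.06%) and 298 in ICM alone (7.91%, 9.51%). 2-cell against 2-cell TBE gave 0 in 2-cell TBE alone (0%, 0.214%). 4-cell against 4-cell TBE gave 4 in 4-cell alone (0.624%, 0.614%). 8-cell against 8-cell TBE gave 52 in 8-cell TBE alone (1.33%, 1.44%). Without each replicate they ran GV oocyte against 2-cell 0 to 1 in 2-cell alone, 2-cell against 4-cell 132 to 355 in 4-cell alone, 4-cell against 8-cell 12 to 37 in 4-cell alone, 8-cell against Morula 939 to 1464 in Morula alone and 483 to 591 in 8-cell alone, Morula against ICM 77 to 215 in ICM alone and 1154 to 1684 in Morula alone, ICM against ESC 297 to 1024 in ESC alone and 594 to 894 in ICM alone, 2-cell against 2-cell TBE 6 to 69 in 2-cell TBE alone and 1 to 5 in 2-cell alone, 4-cell against 4-cell TBE 1 to 6 in 4-cell TBE alone and 57 to 124 in 4-cell alone, 8-cell against 8-cell TBE 217 to 993 in 8-cell TBE alone and 1071 to 1682 in 8-cell alone. The causes were not tested, apart from fewer libraries making a looser rule.

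With the replicate number as a replicate block, the stage difference in density had a permutation p of 4e-05 and each comparison of 3 pairs an exact p of 0.25, the smallest it allows. Correlations of same-numbered control and TBE libraries were 0.15, -0.004 and 0.225 at the 2-cell, 0.191, -0.010 and 0.081 at the 4-cell and 0.382, 0.199 and 0.055 at the 8-cell stage. Other-numbered libraries gave -0.246 to 0.109, -0.154 to 0.060 and -0.379 to 0.262 at these stages, which overlapped the same-numbered values. Whether the numbers mark pairs is therefore open, and the main tests did not take them as pairs. The block changed no call. Unknown read depth limits every absolute density, and the 2-cell and 2-cell TBE values rest on 57 to 424 end peaks per list.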
